A study of Danio rerio with 6 samples.

Results

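The genes described here are T-box and tailbud mesoderm genes of the zebrafish, measured by RNA-seq in whole embryos at 18 hpf (hours post fertilization). They were picked out by their names, with earlier results of these data known. Of the 23150 genes in the deposited table, 7 belong to the set: *ntla*, *tbx16*, *tbx6l*, *msgn1*, *tbx6*, *eve1* and *tbx1*. The first is the row of *tbxta*, which the table lists under an older symbol and which was found through the synonyms of a RefSeq gene table, and the other 6 carry the names that were sought. All 7 passed the filter on low counts and are among the 20021 genes tested. The row *tbx6l* is the gene now called *tbx16l*. The symbol *tbx6* was once used for that gene too, but both rows are present and *tbx24* is not, so *tbx6* was read as the gene with that current name, formerly *tbx24*.

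Total RNA came from pools of embryos without chorion and yolk, and the number of embryos in a pool is not given in the sources used here. The control group was wildtype, with the genotype dusp2+/+;dusp6+/+ (WT) and 3 libraries, and the lines named in the methods as wildtype are Ekkwill fish. The mutant group was dusp2um287/um287;dusp6um286/um286, with 3 libraries, and its embryos came from crosses in which both parents carried the same homozygous deletions, so that neither parent supplied an intact copy. Each gene was represented by 1 deletion allele. *dusp6* and *dusp2* encode phosphatases that inactivate the MAP kinase ERK, and the comparison is between wildtype embryos and embryos that lack both. The paper reports that a large share of embryos from such crosses stall before completing a cell division and die before gastrulation ends. The pools were collected after that time, so the mutant pools came from survivors. With both parents homozygous, wildtype siblings could not serve as controls. Effects of losing the genes, of mutant parents, of survival and of line background were not tested separately.

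In the tailbud of a fish embryo, progenitor cells under Wnt and FGF signaling supply the presomitic mesoderm, the tissue from which somites are cut off one after another. T-box proteins, transcription factors that share a DNA-binding domain named after Brachyury, run much of this sequence. *ntla* encodes the zebrafish Brachyury of tailbud and notochord, *tbx16* and *msgn1* act as mesodermal progenitors leave the tailbud, and *tbx6* acts farther forward, where segment borders form. FGF signaling through ERK is known to sustain the expression of several of these genes in zebrafish.

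The libraries held between 36310355 and 45161306 expected counts (estimated reads per gene, which need not be whole), with overlapping ranges in the 2 genotypes. Levels are given as CPM, counts per 1000000 counts of the library after TMM scaling (edgeR's correction for library composition). They are not divided by transcript length, so the levels of different genes are not ranked. The table marks libraries by letters, and they are called wildtype A, B and C and mutant A, C and D. The targeted transcript *dusp6* averaged 221 ± 8.23 CPM in wildtype and 31.1 ± 2.25 CPM in mutant embryos (mean ± SD, n = 3 per genotype) and *dusp2* averaged 1.28 ± 0.314 and 0.14 ± 0.0602 CPM (mean ± SD, n = 3 per genotype), both lower in the libraries labelled as mutant. Mutant D stood apart from the other mutant libraries. A chi-square per degree of freedom, which would be near 1 for counting noise alone, was 15.5 and 12.7 between mutant D and mutant A and C, against 4.33 between mutant A and C and 3.62 to 5.56 within wildtype. The labels do not say whether libraries of a group came from separate clutches, so p-values measure the spread between these libraries, which may be technical.

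Of the 7 genes, *ntla*, *tbx16*, *tbx6l* and *msgn1* were higher in the mutants, by 1.38- to 1.67-fold. *eve1*, also a gene of the tailbud, *tbx6* and *tbx1* did not pass the test. A gene passed where the quasi-likelihood test of edgeR gave a Benjamini-Hochberg adjusted p under 0.05 over all genes tested. Thus 4 of 7 genes passed upwards and 0 downwards. Of all genes tested, 17.4% passed upwards, 17.1% downwards and 34.5% in either direction. The median log2 fold change of the 7 genes was 0.47, and that of all genes tested was -0.0007. With a fold change over 2 required as well, 0 of 7 passed, where 4.95% of all genes did, 2.54% upwards and 2.42% downwards. DESeq2, limma-voom and the other alternatives also gave 0 at that requirement. The count of 4 fell to 2 without wildtype A, when *tbx16* and *msgn1* no longer passed, and was 3 in DESeq2's Wald test and 5 without mutant A. Without wildtype A the share of all genes tested that passed upwards was also smaller, at 12.4%. The shares in the other 2 fits are not given here. More cells of a type and more RNA per cell cannot be told apart in whole embryos.

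**Figure D1:**
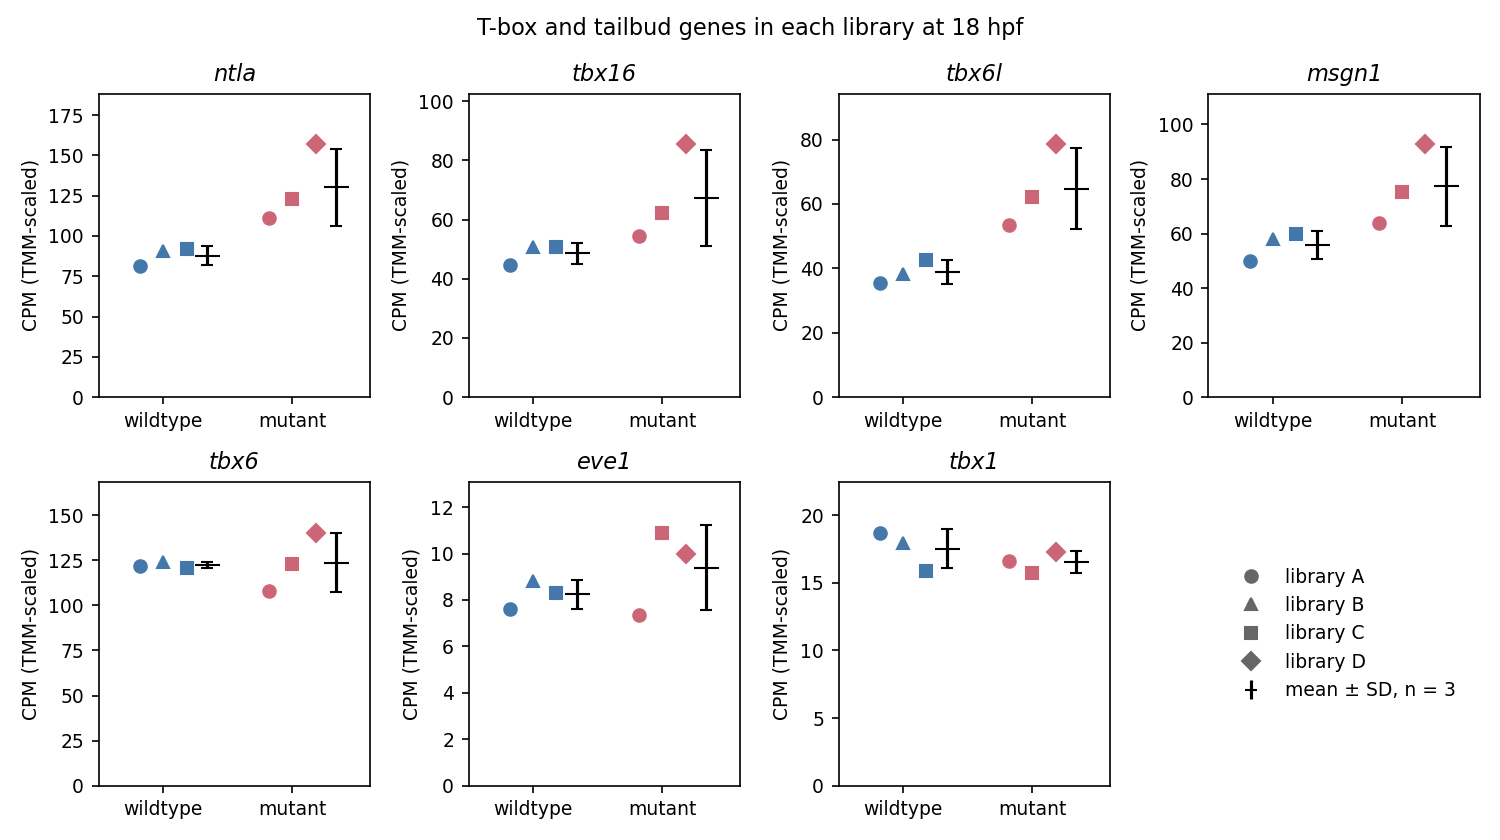
Level of each gene (vertical axis, CPM after TMM scaling, starting at 0) in the 3 wildtype and 3 mutant libraries. Marker shapes give the library letter, and bars beside the points give the mean ± SD (n = 3 libraries). For *ntla*, *tbx16*, *tbx6l* and *msgn1* every mutant library lies above every wildtype library and mutant D is highest, while the groups overlap for *tbx6*, *eve1* and *tbx1*.

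*tbx6l*, a relative of *tbx16* expressed in tailbud and presomitic mesoderm, showed the largest difference of the 7. Its level was 35.4, 38.2 and 42.7 CPM in wildtype A, B and C. In mutant A, C and D it was 53.6, 62.2 and 78.6 CPM. Each mutant library lay above each wildtype library, with a gap of 10.9 CPM between the nearest libraries of the 2 groups. The mean rose from 38.7 ± 3.67 to 64.8 ± 12.7 CPM (mean ± SD, n = 3 per genotype), with an estimated log2 fold change of 0.74 ± 0.117 (SE, edgeR adjusted p = 0.0007). Mutant D alone was at 2.03 times the wildtype mean and mutant A at 1.38 times. Under the 12 alternatives, which included leaving out each library, the log2 fold change stayed between 0.57 and 0.86, and the adjusted p from the respective test stayed at or below 0.0077.

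*ntla*, the Brachyury gene without which zebrafish form neither tail nor notochord, was at 81.1, 90.7 and 91.8 CPM in the wildtype libraries. The mutant libraries A, C and D held 111, 123 and 157 CPM. The mutant values were again all above the wildtype values, by at least 18.9 CPM. The mean rose from 87.8 ± 5.89 to 130.2 ± 24.0 CPM (mean ± SD, n = 3 per genotype), with an estimated log2 fold change of 0.57 ± 0.104 (SE, edgeR adjusted p = 0.0018). The wildtype libraries differed by 10.7 CPM at most and the mutant libraries by 46.3 CPM, with mutant D highest. Without mutant D the log2 fold change was 0.41 and still passed (edgeR adjusted p = 5.7e-05), with a smaller standard error of 0.0574.

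*msgn1* encodes a bHLH factor that promotes the exit of progenitors into presomitic mesoderm together with *tbx16*. Its wildtype libraries were at 49.9, 57.9 and 59.7 CPM, and its mutant libraries at 63.7, 75.3 and 92.8 CPM. The groups did not overlap, but the gap was small, 4.01 CPM. The estimated log2 fold change was 0.47 ± 0.113 (SE, edgeR adjusted p = 0.0085), from 55.8 ± 5.24 to 77.3 ± 14.6 CPM (mean ± SD, n = 3 per genotype). It was 0.31 without mutant D (edgeR adjusted p = 0.0045) and 0.39 without wildtype A, where it no longer passed (edgeR adjusted p = 0.052).

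*tbx16*, the gene of the spadetail mutant, guides the movement of mesodermal cells into the paraxial mesoderm. It was at 44.6, 50.7 and 50.6 CPM in wildtype A, B and C and at 54.4, 62.3 and 85.5 CPM in mutant A, C and D. Mutant A lay only 3.67 CPM above the highest wildtype library, whereas mutant D was at 1.76 times the wildtype mean. The mean rose from 48.6 ± 3.51 to 67.4 ± 16.2 CPM (mean ± SD, n = 3 per genotype), with an estimated log2 fold change of 0.47 ± 0.13 (SE, edgeR adjusted p = 0.017). This was the least firm call of the 4. Without mutant D the log2 fold change was 0.26 (edgeR adjusted p = 0.0073). Without wildtype A it was 0.41 and did not pass (edgeR adjusted p = 0.084), and DESeq2's Wald test gave 0.47 with an adjusted p of 0.072.

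*tbx6*, the gene of the fused somites mutant, is required where segments are laid down in the anterior presomitic mesoderm. Its wildtype libraries lay close together, at 122, 124 and 121 CPM. Mutant A, C and D held 108, 123 and 140.4 CPM, on both sides of the wildtype values. The means were 122 ± 1.56 and 124 ± 16.0 CPM (mean ± SD, n = 3 per genotype), with an estimated log2 fold change of 0.02 ± 0.0749 (SE, edgeR adjusted p = 0.87). The direction was not fixed, with log2 fold changes from -0.08 without mutant D to 0.11 without mutant A, neither of which passed. The spread among mutant libraries was 12.9% of their mean, against 1.27% in wildtype.

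*eve1*, a homeobox gene of the ventral and posterior mesoderm and later the tailbud, had the lowest counts of the 7, with 283 to 477 per library. It was at 7.59, 8.81 and 8.31 CPM in wildtype A, B and C. Mutant A was the lowest of all libraries at 7.33 CPM, and mutant C and D, at 10.9 and 9.96 CPM, were above the wildtype libraries. The estimated log2 fold change was 0.19 ± 0.134 (SE, edgeR adjusted p = 0.3). It was 0.34 without mutant A and then passed (edgeR adjusted p = 0.027), and 0.07 without mutant C. A test that misses the threshold does not show that the levels were equal.

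*tbx1* is expressed in pharyngeal mesoderm, arches and ear rather than in the tailbud, and served here as a T-box gene of another region. The levels were 18.7, 17.9 and 15.9 CPM in wildtype and 16.6, 15.7 and 17.3 CPM in mutant embryos. The groups overlapped, and here mutant D was not the highest library. The estimated log2 fold change was -0.08 ± 0.078 (SE, edgeR adjusted p = 0.44), and from -0.15 to -0.03 under the alternatives.

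**Figure D2:**
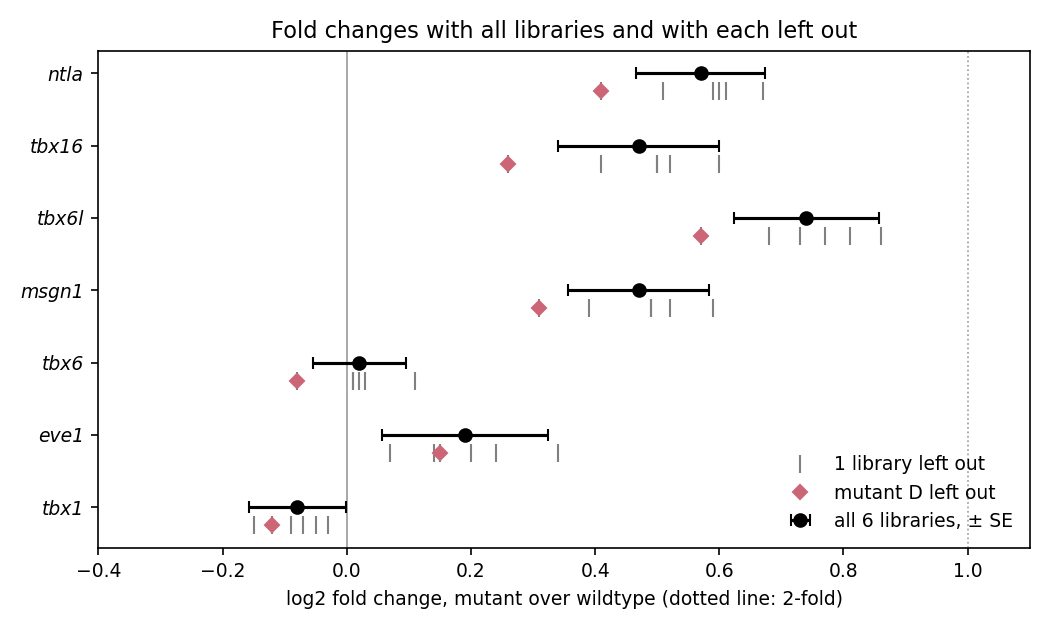
Log2 fold change of each gene, mutant over wildtype (horizontal axis). Black points with bars are the estimates ± standard error from all 6 libraries, ticks are estimates with 1 library left out, and diamonds mark the estimate without mutant D. *tbx6l*, *ntla*, *msgn1* and *tbx16* stay above 0 throughout, between 0.26 and 0.86, none reaching 2-fold, and *tbx6* falls on both sides of 0.

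The 4 rising genes shared their extreme libraries. Wildtype A was the lowest and mutant D the highest library for each of the 4, and for 0 of the other 3 genes. Of all genes tested, 8.43% had this combination, a share that includes genes that fell or did not differ. Where all mutant libraries lie above wildtype, a wildtype library must be lowest and a mutant library highest. The 8.43% is therefore not a like comparison for the 4. Mutant D was the highest library for 5 of the 7 genes, *tbx6* being the fifth, against 25% of all genes tested. For the 4 rising genes a mutant library had to be highest, so the 25% is not a like comparison either. The mutant libraries lay above all wildtype libraries in 4 of 7 genes, against 24.3% of all genes tested, and 49.1% of all genes tested had groups that did not overlap in either direction. The spread of the mutant libraries relative to their mean was 18.4% to 24.0% for the 4 genes and 6.71% to 9.46% in wildtype.

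Counts of 2 genes within the same library can be compared without any scaling between libraries. For each count of *tbx6* there were 0.291, 0.307 and 0.351 counts of *tbx6l* in wildtype A, B and C and 0.494, 0.505 and 0.56 in mutant A, C and D. The mutant mean of this ratio was 1.64 times the wildtype mean. For *ntla* the ratio to *tbx6* was 0.667, 0.73 and 0.755 in wildtype and 1.02, 0.998 and 1.12 in the mutants, 1.46 times as high. In both ratios mutant D lay closer to mutant A and C than it did in the levels of these genes. The ratios of *tbx16* and *msgn1* to *tbx6* were both 1.36 times as high, from 0.397 ± 0.0267 to 0.539 ± 0.0606 and from 0.456 ± 0.0416 to 0.62 ± 0.0373 (mean ± SD, n = 3 per genotype). In all 4 ratios the groups did not overlap, which in an exact permutation test (two-sided, 3 against 3) gives p = 0.1, the smallest value this design allows, and 0.15 adjusted over the 6 ratios to *tbx6*. The 4 genes had already passed as higher and *tbx6* had not, so these ratios largely restate the fold changes. Relative to *eve1*, the groups overlapped for *tbx16* and *msgn1* (exact permutation p = 0.4 and 0.2), but not for *ntla* and *tbx6l* (0.1 for both). Relative to *tbx1*, none of the 4 overlapped (0.1 for each). The ratios of *eve1* and *tbx1* to *tbx6* overlapped between the groups (exact p = 0.4 for both, adjusted 0.4).

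Of the 6 pairs among the 4 rising genes, *msgn1* and *tbx16* were the only pair whose ratio overlapped between the genotypes, and the other 5 ratios did not overlap (exact permutation p = 0.1 for each, the smallest possible, and 0.12 adjusted over the 6 pairs). These genes were taken because they had passed, and *msgn1* and *tbx16* shared a log2 fold change of 0.47. The pair ratios therefore describe the fold changes already given and are no separate support. There were 1.15 ± 0.0307 counts of *msgn1* for each count of *tbx16* in wildtype and 1.16 ± 0.0624 in the mutants (mean ± SD, n = 3 per genotype; exact permutation p = 1). For each count of *tbx16* there were 0.797 ± 0.0449 counts of *tbx6l* in wildtype and 0.968 ± 0.0421 in the mutants (mean ± SD, n = 3 per genotype; exact permutation p = 0.1).

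**Figure D3:**
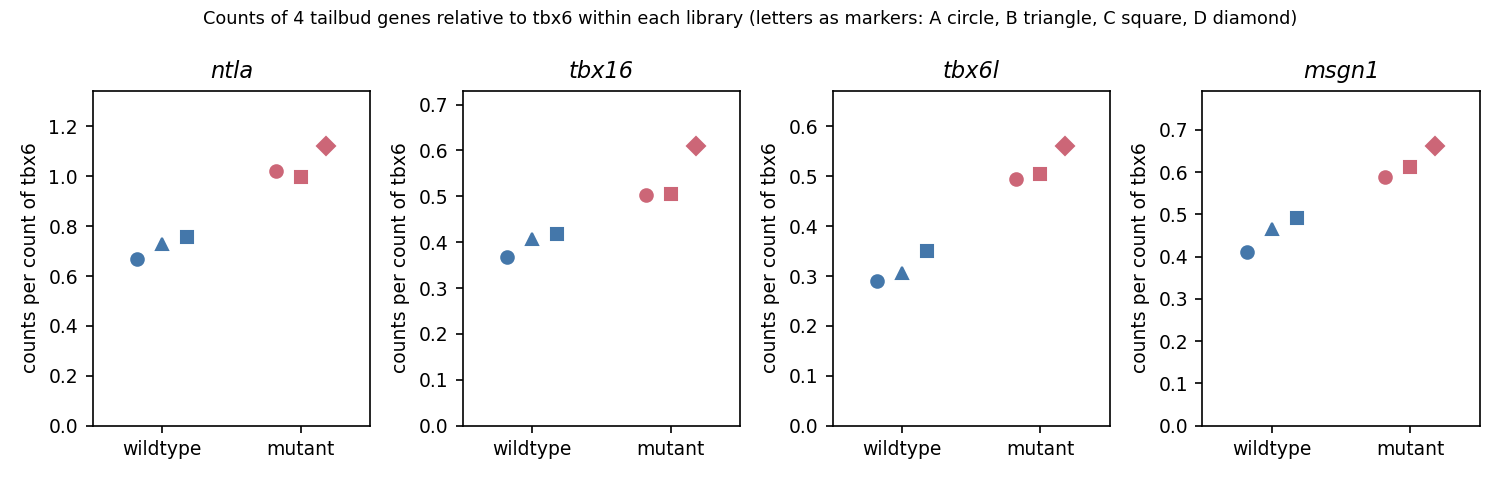
Expected counts of *ntla*, *tbx16*, *tbx6l* and *msgn1* for each expected count of *tbx6* in the same library (vertical axes, starting at 0), with wildtype in blue and mutant in red and the library letters as marker shapes. In each panel the 3 mutant libraries lie above the 3 wildtype libraries, for *tbx6l* at 0.494 to 0.56 against 0.291 to 0.351.

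The rest of the tailbud and segmentation program was read from lists of genes by role. Over 7 such lists, 94 genes outside the set were tested, of which 30 were higher, 17 lower and 47 not past the threshold of edgeR's test. These 50% compare with 34.5% of all genes tested. Of the 94, 1 rose and 1 fell by over 2-fold, where 2.54% of all genes tested rose and 2.42% fell by that much.

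Of 13 signals of the tailbud, 4 were higher and 2 lower, with a median log2 fold change of 0.1. The 2 genes of the list that rose most encode Wnt ligands. *wnt8a*, which maintains tailbud progenitors in zebrafish, rose from 11.2 ± 1.39 to 20.4 ± 3.28 CPM (mean ± SD, n = 3 per genotype), and *wnt5b*, a ligand of noncanonical Wnt signaling, from 38.5 ± 1.58 to 63.6 ± 4.38 CPM (mean ± SD, n = 3 per genotype). Their log2 fold changes were 0.86 (edgeR adjusted p = 0.0003) and 0.72 (edgeR adjusted p = 9.2e-06). The other Wnt genes of the list are named after their values were seen. *wnt11* rose by 0.45 on the log2 scale (edgeR adjusted p = 0.0037). *wnt3a* and *wnt3*, at -0.05 and -0.07, did not pass (edgeR adjusted p = 0.81 and 0.69). The FGF ligand genes *fgf8b* and *fgf24* fell by 0.90 and 0.85 on the log2 scale (edgeR adjusted p = 0.0094 and 0.0086), both from levels under 3 CPM. *fgf8a*, the main FGF ligand of the tailbud, is named here after its value was seen. It rose from 27.4 ± 0.351 to 37.6 ± 1.61 CPM (mean ± SD, n = 3 per genotype), a log2 fold change of 0.46 with an edgeR adjusted p of 0.00011. The remaining FGF ligand genes, *fgf17*, *fgf4* and *fgf3*, are likewise named after their values were seen. They were at -0.16, 0.10 and 0.20 on the log2 scale and did not pass (edgeR adjusted p = 0.2, 0.55 and 0.093).

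Of 9 genes known to respond to Wnt or FGF signaling, 5 were higher and 0 lower (median log2 fold change 0.22). *sp5l* and *sp5a*, zinc-finger factors downstream of Wnt, rose by log2 fold changes of 0.53 and 0.36 (edgeR adjusted p = 0.0033 and 0.0029). *lef1*, a nuclear effector of Wnt signaling, rose by 0.36 (edgeR adjusted p = 0.01), and *spry4*, an FGF feedback inhibitor, by 0.33 (edgeR adjusted p = 0.0012). The Wnt target *axin2*, named after its value was seen, was at a log2 fold change of 0.07 (standard error 0.0486, edgeR adjusted p = 0.27). The rest of the list is likewise named after its values were seen. *il17rd* rose by 0.22 on the log2 scale (edgeR adjusted p = 0.018). *tcf7*, *etv4* and *etv5b* were at 0.22, 0.17 and 0.08 and did not pass (edgeR adjusted p = 0.098, 0.062 and 0.22).

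Of 18 other transcription factors of tailbud and posterior mesoderm, 16 could be tested. Among them 7 were higher and 1 lower, and the median log2 fold change was 0.19. *ntlb*, the other zebrafish Brachyury copy, measured 4.38 ± 0.323 CPM in wildtype and 6.92 ± 1.11 CPM in mutant embryos (mean ± SD, n = 3 per genotype), a log2 fold change of 0.66 (edgeR adjusted p = 0.0029). That value lies between those of *ntla* and *tbx6l*. The ventral homeobox gene *ved* rose by 0.75 on the log2 scale (edgeR adjusted p = 0.0019) and *gata5*, better known from endoderm and heart, by 0.70 (edgeR adjusted p = 0.00065). *cdx1a* rose by 0.81 on the log2 scale (edgeR adjusted p = 0.032) from 1.5 ± 0.549 to 2.64 ± 0.673 CPM (mean ± SD, n = 3 per genotype), with overlapping groups. The gene that fell, named after its value was seen, was *sox3*, a factor of neural progenitors, at a log2 fold change of -0.20 (edgeR adjusted p = 0.022), and without wildtype C the count of lower genes was 0.

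Of 17 tested genes of the segmentation clock and the segmental prepattern, 9 were higher and 1 lower, with a median log2 fold change of 0.19. The clock genes *her1* and *her7*, which encode oscillating repressors, rose by log2 fold changes of 0.51 and 0.76 (edgeR adjusted p = 0.0059 and 0.0012). *hes6*, whose protein pairs with theirs, rose by 0.49 on the same scale (edgeR adjusted p = 0.00069). *mespab*, which acts where segment borders form, was the gene of the 94 that rose by over 2-fold, from 1.04 ± 0.232 to 2.43 ± 0.507 CPM (mean ± SD, n = 3 per genotype; log2 fold change 1.22, edgeR adjusted p = 0.0021). Other genes were named after their values were seen. Log2 fold changes were -0.02 for *ripply1* and -0.09 for *ripply2*, genes of that anterior zone (edgeR adjusted p = 0.82 and 0.64). The other *mesp* genes *mespaa*, *mespba* and *mespbb* were at 0.40, 0.27 and -0.07 (edgeR adjusted p = 0.057, 0.54 and 0.8). In the same list *pcdh8* and *epha4a* rose by 0.44 and 0.19 on the log2 scale (edgeR adjusted p = 0.00011 and 0.004). The lower gene, the ephrin gene *efnb2a*, was at a log2 fold change of -0.14 (edgeR adjusted p = 0.039), and the count of lower genes was 0 without wildtype A, without wildtype B and without mutant C.

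Of 14 somite genes tested, 3 were higher and 6 lower (median log2 fold change -0.21). *aldh1a2*, the enzyme of retinoic acid synthesis in the somites, fell from 72.9 ± 2.21 to 39.1 ± 6.78 CPM (mean ± SD, n = 3 per genotype), a log2 fold change of -0.90 (edgeR adjusted p = 6.1e-05). *pax7a* and *pax7b*, genes of the outer somite layer and the neural crest, fell by 0.67 and 0.49 on the log2 scale (edgeR adjusted p = 0.0055 and 0.0013), and *tbx18* fell by 0.59 (edgeR adjusted p = 0.011). The 3 higher genes, named after their values were seen, were *myf5*, *fn1b* and *foxc1a*. Their log2 fold changes were 0.48, 0.28 and 0.18 (edgeR adjusted p = 0.00012, 0.0016 and 0.04). The count of higher somite genes was 2 with upper-quartile scaling, in DESeq2's Wald test, without wildtype A, B or C and without mutant C. It was 4 without mutant A.

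**Figure D4:**
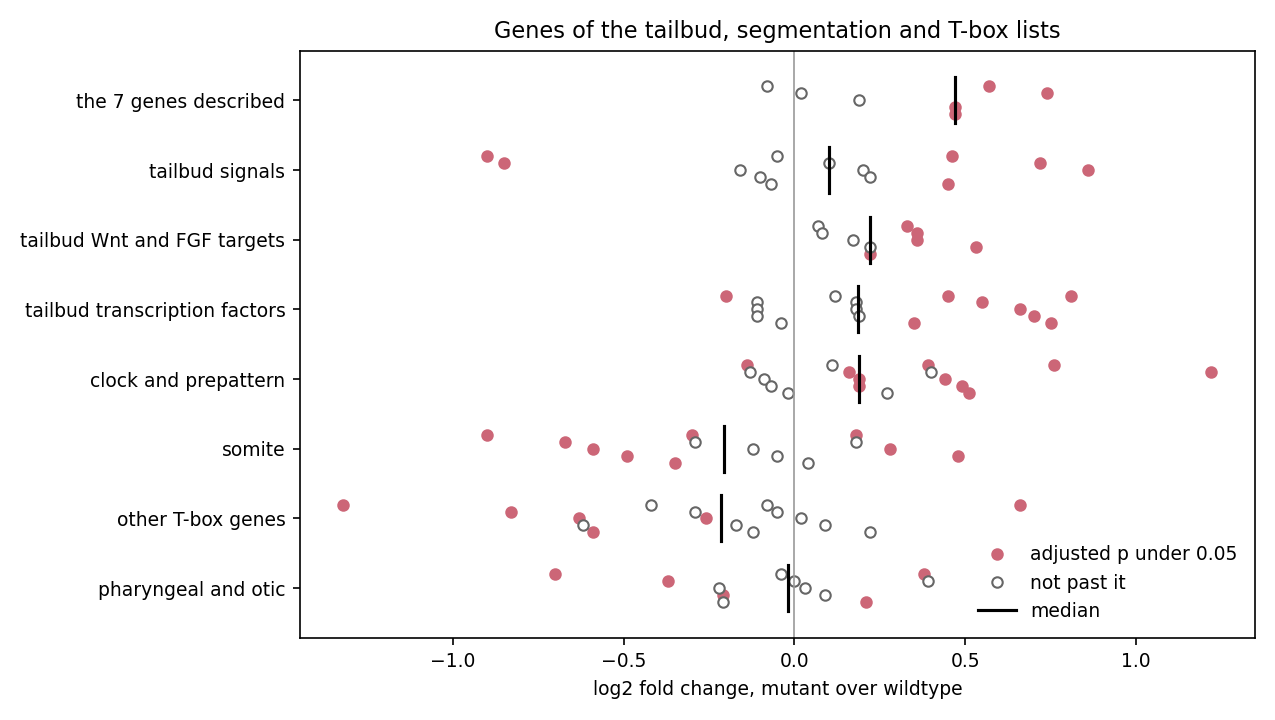
Log2 fold changes, mutant over wildtype (horizontal axis), of the 7 genes described and of the tested genes of 7 lists. Filled points passed an adjusted p under 0.05 in edgeR's quasi-likelihood test, open points did not, and vertical bars are medians. The medians are 0.47 for the 7 genes, 0.1 to 0.22 for signals, targets, transcription factors and clock genes, and -0.21 for somite genes and for other T-box genes.

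Of 16 other T-box genes tested, 1 was higher, *ntlb*, 5 were lower and 10 did not pass, with a median log2 fold change of -0.21. Of all genes tested, 17.4% passed upwards, 17.1% downwards and 34.5% in either direction. *tbx5a*, a gene of heart and pectoral fin, fell from 4.94 ± 0.464 to 1.97 ± 0.222 CPM (mean ± SD, n = 3 per genotype), a log2 fold change of -1.32 (edgeR adjusted p = 5.6e-05), and was the gene of the 94 that fell by over 2-fold. *tbr1b* and *eomesa*, T-box genes of forebrain neurons, fell by 0.83 and 0.63 on the log2 scale (edgeR adjusted p = 0.0033 and 0.0026). *tbx2b*, named after its value was seen, was at a log2 fold change of -0.26 (edgeR adjusted p = 0.00092), and *tbx18* is counted here as well as among the somite genes. The count of higher genes was 2 without mutant C. Of 12 genes of the pharyngeal arches and ear, where *tbx1* is expressed, 2 were higher and 3 lower (median -0.02), with 1 higher without wildtype A or without wildtype C. *mef2ca*, a factor of muscle and arch skeleton, was at a log2 fold change of -0.70 (edgeR adjusted p = 0.00053), *mef2cb* at -0.37 (edgeR adjusted p = 0.01), *pax2a*, a gene of the ear and the midbrain-hindbrain boundary, at -0.21 (edgeR adjusted p = 0.018) and *hand2*, a gene of heart and arches, at 0.38 (edgeR adjusted p = 0.0057).

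Marker genes of other tissues differed between the genotypes as well. *ntla* is expressed in the notochord as well as the tailbud, and 7 of 8 notochord genes tested were higher, 0 lower. Their summed level was 1813 to 2115 CPM in wildtype and 2275 to 3122 CPM in mutant embryos, highest in mutant D. In the notochord list 4 of 8 were higher without wildtype A and 6 without mutant D, where 12.4% and 16.1% of all genes tested were higher. The collagen gene *col2a1a* made up most of this sum, at 1319.9 ± 121 CPM in wildtype and 1785 ± 341 CPM in mutant embryos (mean ± SD, n = 3 per genotype; log2 fold change 0.44, edgeR adjusted p = 0.01). The notochord homeobox gene *flh*, now called *noto* and named after its value was seen, was at 8.73 ± 0.707 and 9.96 ± 0.723 CPM (mean ± SD, n = 3 per genotype; log2 fold change 0.19, edgeR adjusted p = 0.14).

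Genes of muscle differentiation were more often lower than higher. Of 10 tested, 4 were lower and 1 higher, with a median log2 fold change of -0.55. Their summed level was 2850 to 3151 CPM in wildtype, 2348 and 2363 CPM in mutant A and C, and 1334 CPM in mutant D, the library in which *ntla*, *tbx16*, *tbx6l* and *msgn1* were highest. *myog*, a myogenic factor of differentiating muscle cells named after its value was seen, was at 119.7 ± 3.18 and 76.4 ± 19.7 CPM (mean ± SD, n = 3 per genotype; log2 fold change -0.64, edgeR adjusted p = 0.0048). The higher gene, also named after its value was seen, was *tnnt3b*, at 0.36 (edgeR adjusted p = 0.033). Most of the sum came from *smyhc1* and *actc1b*, both named after their values were seen, with wildtype means of 1578 and 782 CPM. *smyhc1* passed at -0.62 (edgeR adjusted p = 0.0067) and *actc1b*, at -0.48, did not (edgeR adjusted p = 0.066). Without mutant D, 6 of the 10 were lower and 2 higher, and *ntla*, *tbx16*, *tbx6l* and *msgn1* still passed, while *eve1* did not (log2 fold change 0.15, edgeR adjusted p = 0.44). Without wildtype A, 2 of the 10 were lower and 0 higher. Of all genes tested, 16.9% were lower and 16.1% higher without mutant D, and 12.1% and 12.4% without wildtype A. Of the 7 brain and spinal cord genes tested, 3 were higher and 2 lower. The summed level of these genes overlapped between the groups, at 838 to 848 CPM in wildtype and 812 to 888 CPM in mutant embryos. Most of that sum came from *sox19a* and *elavl3*, both named after their values were seen, with wildtype means of 454 and 195 CPM. These were the genes of the list that did not pass (edgeR adjusted p = 0.83 and 0.32). All 8 blood genes were higher, at 211 to 238 CPM summed in wildtype and 297 to 346 CPM in the mutants, and *gata1a* was among them with a log2 fold change of 0.85 (edgeR adjusted p = 0.0005). Of 6 germ cell genes, 5 were higher and 1 lower, at 13.3 to 15.7 and 25.2 to 37.0 CPM summed. Of 7 genes of the yolk syncytial layer, 2 were higher and 0 lower, at 743 to 798 and 900.1 to 1259 CPM summed, and 5 did not pass. Most of that sum was *apoeb*, named after its value was seen, at 704 ± 16.4 and 979.5 ± 159 CPM (mean ± SD, n = 3 per genotype). The next largest, *apoa1b*, likewise named after its value was seen, overlapped between the groups, at 23.7 ± 13.3 and 29.2 ± 14.2 CPM (mean ± SD, n = 3 per genotype). *mxtx2*, which defines that layer earlier and is named after its value was seen, did not pass the filter. The part of any of these shifts in the levels of the 7 genes was not tested.

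**Figure D5:**
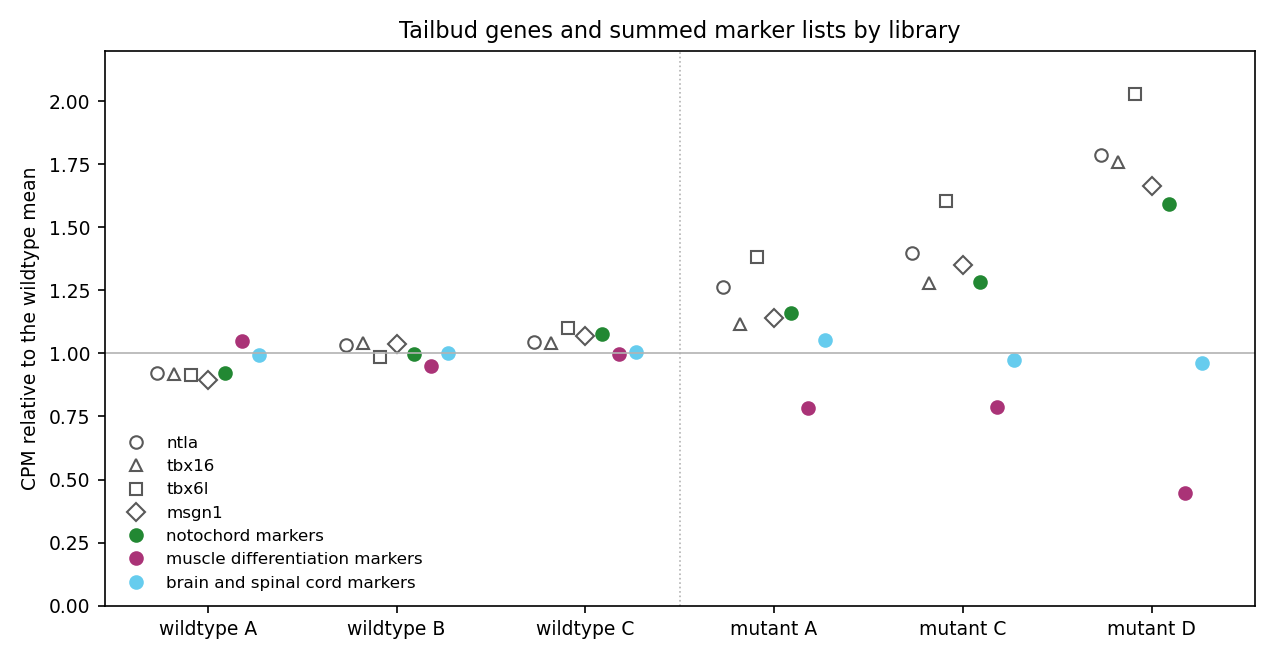
Level in each library relative to the mean of the 3 wildtype libraries (vertical axis, starting at 0) for *ntla*, *tbx16*, *tbx6l* and *msgn1* (open symbols) and for the summed CPM of the notochord, muscle differentiation and brain and spinal cord lists (filled circles). In mutant D the 4 genes were at 1.66 to 2.03 times the wildtype mean and the muscle differentiation sum was at its lowest.

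Profiles over the 6 libraries were compared with those of 132 genes from all lists whose mean was 1 CPM or more and which had counts in every library. Each profile was taken as log2 CPM centred on the gene's own mean, and likeness as the root mean square difference, which is a description only. *her1* was the gene nearest to *ntla*, *tbx16* and *msgn1*, at differences of 0.0449, 0.0553 and 0.0317 on the log2 scale. After *her1* came *vent*, a ventral homeobox gene, for *ntla* (0.0747) and *col2a1a* for *tbx16* and *msgn1* (0.0633 and 0.0463). The genes nearest to *tbx6l* were *gata5* (0.0709) and *gata1a*, the erythroid GATA factor (0.0803). *tbx6* was nearest to *nkx2_3* (0.0756) and to the Notch ligand gene *dlc* (0.09), whose log2 fold change of 0.11 did not pass (edgeR adjusted p = 0.077). For *tbx1* they were *efnb2a* (0.0644) and the neuronal gene *elavl3* (0.0691). *eve1* had no close neighbour, its nearest being *fgf4* (0.122) and *il17rd* (0.128). Among the 7 genes themselves, *msgn1* and *tbx16* were each other's nearest (0.0509), and so were *tbx6* and *tbx1*, at a larger difference (0.127).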

How the data were processed

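The authors checked reads with FastQC, estimated strand-specific expected counts per gene with RSEM (version 1.2.28 per the labels) on DanRer7 transcripts, and took out ribosomal RNA before deposit (the labels also name GRCz10). RSEM divides reads that fit several transcripts, and 2 to 6 of the 6 libraries had counts that are not whole, to within 0.005, for 6 of the 7 genes, against 1 library for *eve1*. The fold changes and p-values the authors deposited from their own DESeq2 comparison were not used. Columns name the genotype and a letter, not the numbered replicates of the labels.

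Expected counts were rounded, filtered with filterByExpr, scaled by TMM and compared with edgeR 4.0.16 (glmQLFit, glmQLFTest) in R 4.3.3 with Benjamini-Hochberg adjustment over 20021 genes. Standard errors (SE) were taken as the log2 fold change over the root of F. Alternatives were DESeq2 1.42.0 (size factors; Wald test), limma-voom 3.58.1, upper-quartile scaling, no filter, CPM over 1 in at least 3 libraries, and leaving out each library. The 7 genes and the lists were chosen with earlier results of these data known. From each of the 7 lists by role, not the marker lists, the 4 largest changes among genes that passed with a mean of at least 1 CPM are named, and for each of the 7 genes the 2 most alike profiles; others, marker genes included, are marked where named. List genes were matched by symbol or through the synonyms of the RefSeq gene table of assembly GRCz12tu, whose coordinates belong to another build and are not printed. *ntlb* was matched to *tbxtb* from general knowledge, and *her15.2*, *tcf15*, *tbx3b*, *eomesb* and *col9a1a* were not analysed here.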

Additional observations from a re-analysis of the deposited data

How the results depend on the processing

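The 7 log2 fold changes, the 3 counts over the 7 genes and the counts in the 7 lists were recomputed under 12 alternatives. The 4 rising genes kept their direction under all 12. With each library left out, the log2 fold change ran from 0.41 to 0.67 for *ntla*, from 0.26 to 0.60 for *tbx16*, from 0.57 to 0.86 for *tbx6l*, from 0.31 to 0.59 for *msgn1*, from -0.08 to 0.11 for *tbx6*, from 0.07 to 0.34 for *eve1* and from -0.15 to -0.03 for *tbx1*. DESeq2's Wald test gave 0.47 for *tbx16* (adjusted p = 0.072), which no longer passed. In the fits with 1 library left out, the count of the 7 genes that were higher ran from 2 to 5. It was 2 without wildtype A, where 12.4% of all genes tested passed upwards. The count of lower genes ran from 0 to 1 among the transcription factors and from 0 to 1 among clock and prepattern genes. The count of higher genes ran from 1 to 2 among the other T-box genes and from 1 to 2 among pharyngeal and otic genes. Among somite genes it ran from 2 to 4 and among Wnt and FGF targets from 4 to 7. It ran from 6 to 8 among the transcription factors and from 8 to 10 among clock and prepattern genes. Among signals of the tailbud it stayed at 4. The cause of these changes was not tested, beside the loss of a library from groups of 3. No scaling moved the median log2 fold change of all genes by as much as 0.01. No paired analysis was possible because the columns carry letters that cannot be tied to the replicate numbers of the labels. At these depths *eve1*, with 283 to 477 counts per library, is the least precisely counted of the 7.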
